A study of Caenorhabditis elegans with 2 samples.

Results

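The 10 genes described here encode subunits of the small nuclear RNA activating protein complex (SNAPc) of Caenorhabditis elegans and factors that act with it in the transcription of piRNA genes, and all 10 were found by name among the 19973 nuclear protein-coding genes of the annotation. They are snpc-1.1, snpc-1.2 and snpc-1.3, snpc-3.1, snpc-3.2 and snpc-3.4, snpc-4, prde-1, tofu-4 and tofu-5. Chromatin immunoprecipitation and sequencing (ChIP-seq) was carried out with an antibody against GFP on sonicated chromatin of whole young adult hermaphrodites of strain YL485, which stably expresses SNPC-1.3 (F08F3.9) fused at its C terminus to GFP and FLAG. The series held 1 group of 2 biological replicates of that strain, with no untagged or male group, so every comparison is between genes and not between conditions. Because snpc-1.3 is the tagged gene, it is described apart from the other 9. The labels call the change in the strain an insertion targeting snpc-1.3, and do not say whether the original copy of the gene was kept. Whole animals were used, so the tissue in which a region was bound cannot be told.

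SNAPc binds a promoter element upstream of genes for short RNAs and recruits RNA polymerase II or III to them. In C. elegans the subunit SNPC-4 also binds the clusters of piRNA genes in germline nuclei, together with PRDE-1, TOFU-4 and TOFU-5, and this assembly is needed to transcribe the precursors of piRNAs, the short RNAs that guide PIWI proteins to foreign or unwanted transcripts. SNPC-1.3 is known as the subunit that drives the piRNAs of the male germline. The question asked here was where the regions enriched with tagged SNPC-1.3 lay at the genes for its own complex.

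The files listed 30000 candidate regions for each replicate, 30000 for both replicates pooled, and 1676 regions kept by an analysis of the irreproducible discovery rate (IDR), called IDR peaks here. The candidate lists keep background regions on purpose, so a candidate alone is weak evidence. The 1676 IDR peaks were the 1676 pooled regions of highest signal, and the threshold fell between rank 1676 and rank 1677, at a signal of 39.8. Signal is the score of the authors' peak caller on its own scale for each list, so ranks (1 is the highest, mitochondrial regions included) are used to set lists side by side. Read depth is unknown, and p-values cannot be given with 1 group. A region was assigned to a gene when its summit lay within 500 bp of the annotated 5′ end.

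Sequence is shown for the genes with the clearest regions, snpc-3.4 and snpc-1.2, for prde-1, which ranked high in 1 replicate, and for the tagged gene. Each run is on the strand of the gene, 5′ to 3′, and ends 20 bases into the gene, from the RefSeq sequence of WBcel235 (ce11). The first 3 lie at chrIII:4019787-4020056 (plus strand), chrIII:13169522-13169791 (minus strand) and chrV:15538064-15538263 (plus strand), with the annotated gene in capitals.
snpc-3.4: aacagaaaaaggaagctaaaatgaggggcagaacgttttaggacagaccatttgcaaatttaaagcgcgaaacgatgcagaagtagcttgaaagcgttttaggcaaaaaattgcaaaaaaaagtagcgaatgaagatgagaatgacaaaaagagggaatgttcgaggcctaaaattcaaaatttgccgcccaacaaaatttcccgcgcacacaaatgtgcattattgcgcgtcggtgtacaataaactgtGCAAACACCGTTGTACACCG
snpc-1.2: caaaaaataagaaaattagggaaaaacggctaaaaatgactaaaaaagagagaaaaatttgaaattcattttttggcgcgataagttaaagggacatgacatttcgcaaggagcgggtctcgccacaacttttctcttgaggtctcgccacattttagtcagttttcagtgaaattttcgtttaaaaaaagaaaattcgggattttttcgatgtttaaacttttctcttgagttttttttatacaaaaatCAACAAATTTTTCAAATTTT
prde-1: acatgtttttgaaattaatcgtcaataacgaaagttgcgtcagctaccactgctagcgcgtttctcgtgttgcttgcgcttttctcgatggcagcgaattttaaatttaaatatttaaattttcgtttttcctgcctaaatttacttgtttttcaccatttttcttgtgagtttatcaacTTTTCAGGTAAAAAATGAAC

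The sequence upstream of snpc-1.3, at chrV:5439149-5439418 on the minus strand, is shown for 3 matches in it to TGGGTGGTC, the core of the site bound by the zinc finger protein TRA-1. Capitals mark these matches, which run on the strand opposite to the gene.
snpc-1.3: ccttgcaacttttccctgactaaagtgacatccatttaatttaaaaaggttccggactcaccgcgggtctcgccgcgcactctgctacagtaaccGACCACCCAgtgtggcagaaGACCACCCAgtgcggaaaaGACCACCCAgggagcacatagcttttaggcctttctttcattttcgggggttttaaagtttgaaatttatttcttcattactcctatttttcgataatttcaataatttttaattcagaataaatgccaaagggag

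Of the 9 untagged genes, snpc-3.4 and snpc-1.2 had an IDR peak at the 5′ end, which is 2 of 9, where 5.94% of all protein-coding genes had one. With so few genes no test was made, and the count was 2 of 9 within 1000 bp as well, where the share of all genes was 7.78%. No IDR peak had its summit inside any of the 9 genes (2.27% of all genes), and 5 of 9 had a pooled candidate there (40.1%). All 9 had a pooled candidate within 500 bp, against 35.1% of all genes. Within 250 bp the count was 6 of 9, against 23.4%. The fifth of the 9 in order, tofu-4, was at rank 2926, and 9.57% of all genes had a region of this rank or higher at the 5′ end. The 7 untagged genes without an IDR peak had pooled signals of 28.7% to 77.4% of the lowest IDR peak.

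**Figure D1:**
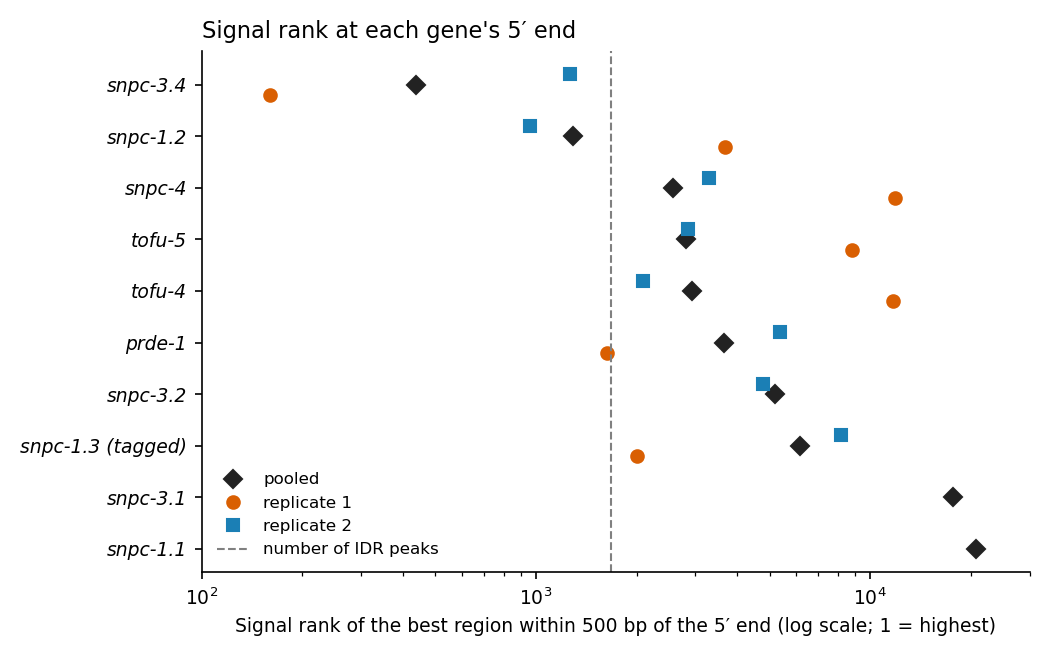
Signal rank (log scale, 1 is the highest) of the best region within 500 bp of the 5′ end of each gene in the pooled list (diamonds), replicate 1 (circles) and replicate 2 (squares), with the number of IDR peaks, 1676, as a dashed line; a gene with no region in a list has no point. The pooled diamonds of snpc-3.4 and snpc-1.2 lie left of the line and the other 8 lie right of it.

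Among the SNAPC1 paralogues, snpc-1.2 was the one with an IDR peak. SNPC-1.2 is one of the C. elegans relatives of human SNAPC1, as are SNPC-1.1 and SNPC-1.3. Its IDR peak had a signal of 45.6 at rank 1292 and its summit 163 bp upstream of the gene (III 13165659 to 13169541, minus strand). The replicates differed, with rank 960 and a signal of 37.5 in replicate 2 but rank 3681 and a signal of 11.2 in replicate 1, so that replicate 1 alone would have left it below the top 1676. The replicate summits were 47 bp apart. The peak lay between divergent genes 375 bp apart at their 5′ ends, and its summit was 212 bp upstream of Y39E4B.5, so the promoter to which it belongs cannot be told from position. Inside snpc-1.2, 3 weaker pooled candidates had summits in introns, at ranks 8174, 8782 and 29070. The summit of the last of them lay 144 bp downstream of the 5′ end of Y39E4B.17, annotated as an ncRNA.

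snpc-1.1 (II 7779297 to 7781301, minus strand) had the weakest 5′ region of the 10 genes. Its pooled candidate was at rank 20717 with a signal of 11.4, 25 bp inside the gene in the 5′ UTR, and neither replicate list held a region within 500 bp. The gene is divergent from spdl-1, which encodes a Spindly-like protein of the kinetochore, with 265 bp between the 5′ ends. The region of highest rank in the gene was instead in its 3′ UTR (pooled rank 7893), and in replicate 1 it was at rank 4311 in a coding exon 1847 bp from the 5′ end. Replicate 2 had no region at that end of the gene. Its only region in snpc-1.1 was at rank 28157, in a coding exon 633 bp from the 5′ end. Every 31-mer of snpc-1.1 occurs once in the genome.

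Among the SNAPC3 paralogues, snpc-3.4 had the highest region of all 10 genes. The IDR peak at snpc-3.4 (III 4020037 to 4021883, plus strand) was at rank 439 with a signal of 77.4, 194% of the lowest IDR peak. Its summit was 22 bp upstream of the gene, within the last lower-case bases of the run shown above, and in the replicates 23 bp and 19 bp upstream. Replicate 1 placed it at rank 160 with a signal of 40.9 and replicate 2 at rank 1268 with a signal of 32.8. Of all protein-coding genes, 1.42% had a pooled region of this rank or higher at the 5′ end, 283 genes in number. No other gene lay within 1000 bp of that summit by its 5′ end, with piRNA genes left out of the search. The run holds 1 match to GTTCNANNC, a form of the B box of tRNA genes, 91 to 83 bp upstream of the gene. Such a match was present in 8.74% of all windows from 250 bp before to 50 bp after a 5′ end, so it is a common occurrence.

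The protein-coding genes whose ranks in the 3 lists were most like those of snpc-3.4 were hrpk-1, rpl-32 and pro-1, by the sum of absolute log2 rank ratios over the pooled and both replicate lists, among 4199 genes with a region in each. hrpk-1 (sum 0.372), a KH-domain RNA-binding protein gene, was at ranks 457 pooled, 151 in replicate 1 and 1081 in replicate 2. rpl-32, for a large-subunit ribosomal protein, gave 0.495 and pro-1, known for its role in germline patterning, gave 0.668. These are likenesses of rank only.

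snpc-3.1 and snpc-3.2 were the genes with no region in the gene body, and much of their sequence occurs more than once. SNPC-3.1 and SNPC-3.2, like SNPC-3.4, are relatives of human SNAPC3. No candidate region of any list touched either gene between its annotated ends. The pooled candidates nearest to the 5′ ends were 288 bp upstream of snpc-3.1 (IV 5484039 to 5486258, minus strand) at rank 17734, and 292 bp upstream of snpc-3.2 (I 252107 to 254294, plus strand) at rank 5198. The first was in neither replicate list and lay 167 bp upstream of the divergent gene puf-7, a Pumilio-family RNA-binding protein gene. Genes for piRNAs were left out of the search for neighbours, so whether one lies near this region was not examined. The second was at rank 4781 in replicate 2 had no counterpart in replicate 1, and lay upstream of the pseudogene WBGene00021673. Only 30.2% of the 31-mers of snpc-3.1 and 28.4% of those of snpc-3.2 occur once in the genome, against 90.1% or more for each of the other 8 genes. The pair shares 1231 of its 31-mers with each other, 56.2% of those in snpc-3.1 and 57.0% of those in snpc-3.2. In the windows from 250 bp before to 50 bp after the 5′ end, 41.1% occur once for snpc-3.1 and 88.1% for snpc-3.2. That share was 100% for the other 8 genes. How reads that match several places were treated is not stated. The empty gene bodies of this pair, and the low rank at the 5′ end of snpc-3.1, are therefore uncertain.

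snpc-4, prde-1, tofu-4 and tofu-5, whose products act together on piRNA genes, all had regions of 64.0% to 77.4% of the lowest IDR signal at the 5′ end. SNPC-4 is the C. elegans relative of human SNAPC4, the subunit with Myb repeats that bind DNA. At snpc-4 (I 8962322 to 8966129, plus strand) the pooled candidate 236 bp upstream was at rank 2573 with a signal of 30.8, 77.4% of the lowest IDR peak. It was at rank 3296 in replicate 2 and at rank 11884 in replicate 1, with summits 43 bp apart. Its pooled −log10 q-value was 2.76, where IDR peaks had 2.94 to 3.42. No other 5′ end lay within 1000 bp of it, again with piRNA genes left out.

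At prde-1 (V 15538244 to 15547086, plus strand) the replicates went the other way. PRDE-1 is a nuclear protein required to make piRNA precursors. Replicate 1 had its region at rank 1630, inside its own top 1676, and replicate 2 at rank 5356, with signals of 15.8 and 16.2 and summits 36 bp apart. The pooled candidate was at rank 3654, 126 bp upstream, and 11.2% of all genes had a region of this rank or higher. Within the 8843 bp of prde-1, 6 more pooled candidates had their summits, all in introns and at ranks 10826 to 18772, 1 of them 231 bp upstream of glb-14, a globin gene on the other strand inside prde-1, and another 820 bp downstream of its 5′ end.

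tofu-4 and tofu-5 were named from a screen for genes without which piRNAs are lost. The pooled candidate at tofu-4 (I 4824904 to 4826639, minus strand) was at rank 2926 with a signal of 28.7, and its ranks were 2085 in replicate 2 and 11662 in replicate 1. Its summit was 337 bp upstream of tofu-4 but 96 bp upstream of the divergent gene htp-3, which encodes a HORMA-domain protein of the meiotic chromosome axis. The best regions of the replicates lay 166 bp apart, and that of replicate 1 was 174 bp upstream of tofu-4. At tofu-5 (I 7069440 to 7070665, plus strand) the candidate at rank 2806 had its summit inside the gene, in a coding exon 171 bp from the 5′ end, and 425 bp upstream of the divergent gene nuo-6, for a subunit of respiratory complex I. Replicate 2 gave it rank 2840 and replicate 1 rank 8806, 98 bp from the 5′ end.

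**Figure D2:**
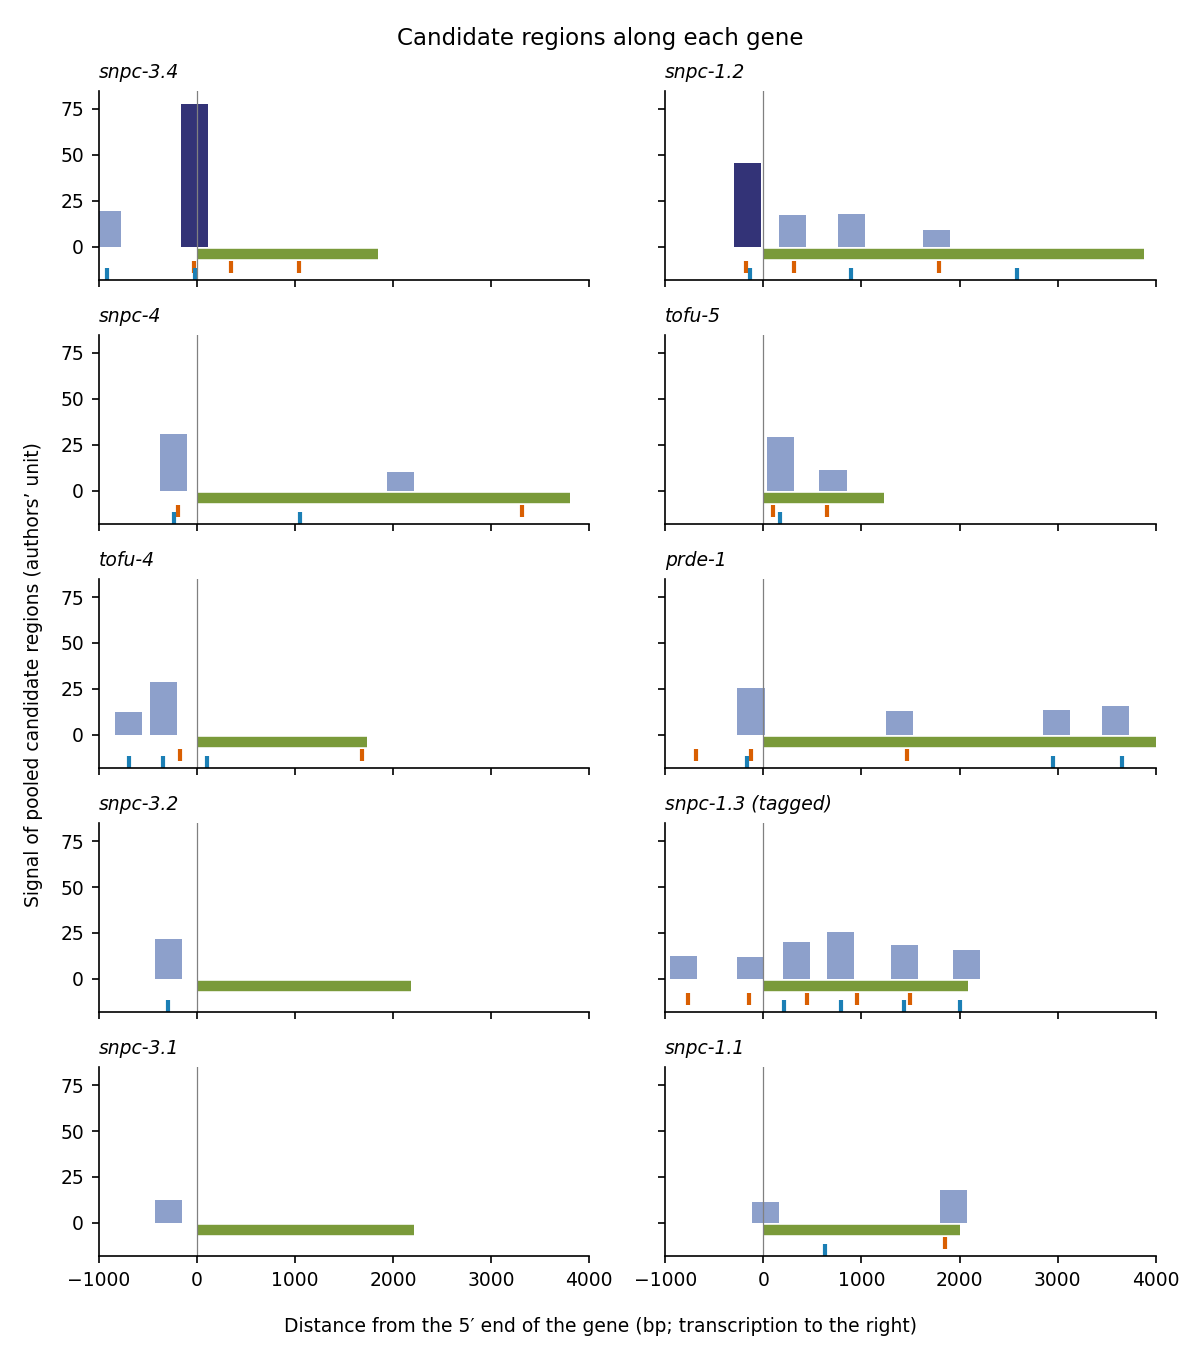
Signal of the pooled candidate regions (bars, in the authors' unit, each as wide as its region) against distance from the 5′ end in bp, for each of the 10 genes; dark bars are IDR peaks, the green bar is the gene, truncated at the right edge for prde-1, and the orange and blue ticks are summits of replicate 1 and replicate 2. The dark bars stand at snpc-3.4 and snpc-1.2, most other genes have 1 bar near the 5′ end, and snpc-1.3 has 4 bars spaced along the gene.

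By replicate, 6 of the 9 untagged genes had a candidate within 500 bp in replicate 1, where 36.4% of all genes had one, and 7 of 9 in replicate 2, where 36.3% had one. The same 6 genes had a region in both replicates (22.7% of all genes), namely snpc-1.2, snpc-3.4, snpc-4, prde-1, tofu-4 and tofu-5. Replicate 2 placed 4 of these 6 at higher ranks, and replicate 1 placed snpc-3.4 and prde-1 higher. With the gene ends ranked by 1 replicate alone, the top 1676 regions of replicate 1 included those of snpc-3.4 and prde-1 (5.1% of all genes), and those of replicate 2 included snpc-3.4 and snpc-1.2 (5.79%). Only snpc-3.4 was in the top 1676 of both.

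The tagged gene snpc-1.3 (V 5437084 to 5439168, minus strand) had no IDR peak at its 5′ end or in its body, but had weak regions spaced along its length. Pooled summits lay in the gene at 337, 790, 1435 and 2070 bp from the 5′ end, at ranks 6151, 3634, 7856 and 10687, with signals of 20.1, 25.6, 18.2 and 15.8. They fell in a coding exon, an intron, a coding exon and the 3′ UTR. The best region within 500 bp of the 5′ end was at rank 2009 in replicate 1, higher than that of snpc-1.2 there, and at rank 8176 in replicate 2, with summits 240 bp apart. Together the pooled regions covered 47.2% of the gene, and 1.23% of all protein-coding genes were covered as much or more. Each replicate showed this, with 38.8% of the gene covered in replicate 1 (2.27% of all genes had as much) and 49.0% in replicate 2 (0.946%). The median of all genes was 0% in the pooled list. Most pooled regions were 276 bp wide, so the share covered depends on gene length, and genes of all lengths gave this background. Of the 9 untagged genes, tofu-5 was at 45.0% pooled, 41.0% in replicate 1 and 22.0% in replicate 2. snpc-3.4 was at 36.4% in replicate 1, but at 7.04% pooled and 7.36% in replicate 2.

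**Figure D3:**
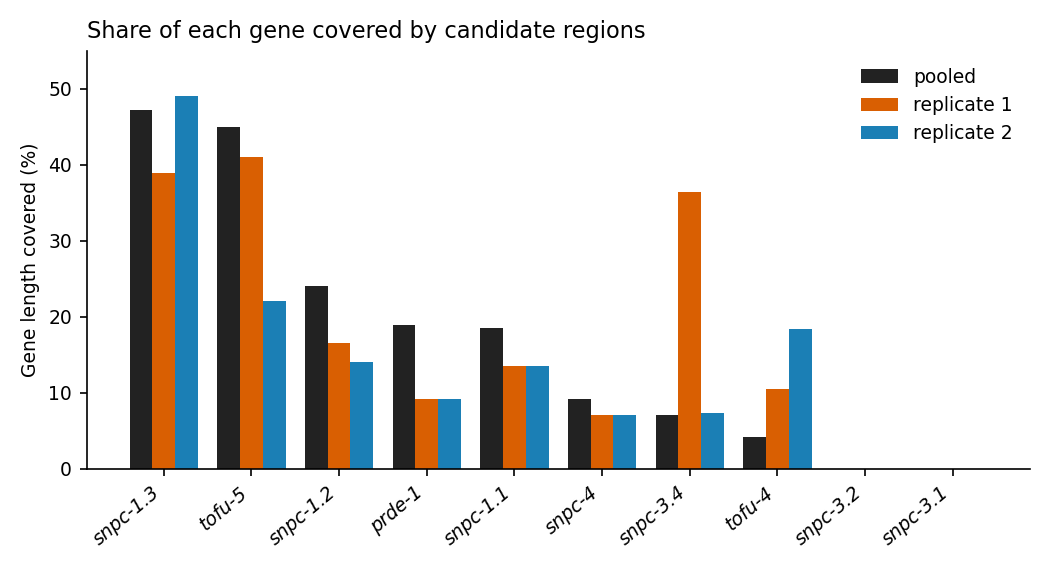
Share of the length of each gene (%) covered by candidate regions in the pooled list and in each replicate, 1 bar per list, for the 10 genes. snpc-1.3 is at 38.8% or more in all 3 lists, while snpc-3.1 and snpc-3.2 are at 0%.

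Around snpc-1.3 candidates were no denser than usual. Within 50 kb of its 5′ end, 26 pooled candidates had their summits, 25 in replicate 1 and 27 in replicate 2, where windows of that length along the nuclear chromosomes had a median of 29 pooled candidates. At the 9 untagged genes the pooled count ran from 16 at snpc-4 to 49 at tofu-5. At unc-119, a marker used to select many C. elegans transgenes and not named in the labels here, there were 47, and its 5′ end had a pooled candidate only at rank 13535. Whether extra or altered DNA at the tagged locus contributes to the cover was not tested.

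Upstream of snpc-1.3 the signal was low. TRA-1, the last factor of the sex determination pathway, is known to hold snpc-1.3 down in hermaphrodites, which is why its motif was searched on both strands. The 3 matches to TGGGTGGTC lay 155 to 147, 135 to 127 and 116 to 108 bp upstream of the gene. Among the 19973 windows of 300 bp at 5′ ends, 36 held the motif (0.18%), and snpc-1.3 was the only gene with 3 matches. A pooled candidate with its summit 135 bp upstream covered them, at rank 19439 with a signal of 11.8, and replicate 1 had one at rank 29768, near the end of its list. Replicate 2 had none upstream within 500 bp. A further pooled candidate, 816 bp upstream at rank 17069, lay 655 bp upstream of cel-mir-255 and 738 bp downstream of the 5′ end of F08F3.13, an ncRNA. None of the 10 windows held CTGTTTCA, the core of the motif upstream of many piRNA genes, which 2.32% of all windows held. Nothing about the factors that bind these letters can be drawn from the matches.

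Features of position and sequence that the choice of members did not use varied among the genes. Of the 9 untagged genes, 5 had a divergent protein-coding neighbour with its 5′ end within 1000 bp upstream, namely snpc-1.1, snpc-1.2, snpc-3.1, tofu-4 and tofu-5, where 17.7% of all protein-coding genes had one. The 5′ ends of these pairs were 254 to 455 bp apart. The GC content of the 201 bp around the best summit ran from 25.9% at tofu-4 to 44.8% at snpc-4, and the median at nuclear IDR peaks was 39.3%. Only snpc-1.1, at 39.8%, and snpc-4 were above that median. The genes with the IDR peaks, snpc-3.4 at 38.3% and snpc-1.2 at 34.3%, were below it, as were the rest.

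Lists of other transcription genes were counted in the same way. Of 9 further genes linked to piRNA transcription, 7 were matched to the annotation, and 0 had an IDR peak within 500 bp. The AT-hook gene attf-6 came nearest at pooled rank 2026, followed by isw-1, for a chromatin remodelling ATPase, at rank 3118 and its partner nurf-1 at rank 16276. The chromodomain gene uad-2 and the forkhead genes fkh-3, fkh-4 and fkh-5 had no region within 500 bp in any of the 3 candidate lists. Of 26 matched genes for RNA polymerase II, its initiation factors and the Integrator complex, which processes small nuclear RNAs, 5 had an IDR peak and all 26 a pooled candidate. The highest were ints-4 (rank 234, signal 97.1), rpb-10 (rank 593), rpb-12 (rank 820) and rpb-5 (rank 1377), and tbp-1, for the TATA-binding protein that SNAPc works with, was at rank 4952. Of 11 genes for RNA polymerase III and its factors, 1 had an IDR peak, rpac-19, for a subunit shared with RNA polymerase I (rank 766, signal 60.1), and 7 had a pooled candidate. tftc-5, for a subunit of TFIIIC, begins 283 bp beyond the end of snpc-3.4 on the same strand and had its own region 158 bp upstream at rank 2267, apart from the peak at the start of snpc-3.4. Read against 5.94% of all genes with an IDR peak and 35.1% with a pooled candidate, these counts are small numbers of genes and were not tested. The polymerases share subunits, among them those encoded by rpb-5, rpb-10 and rpb-12, and each gene was put in 1 list only. The counts therefore do not compare the polymerases.

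**Figure D4:**
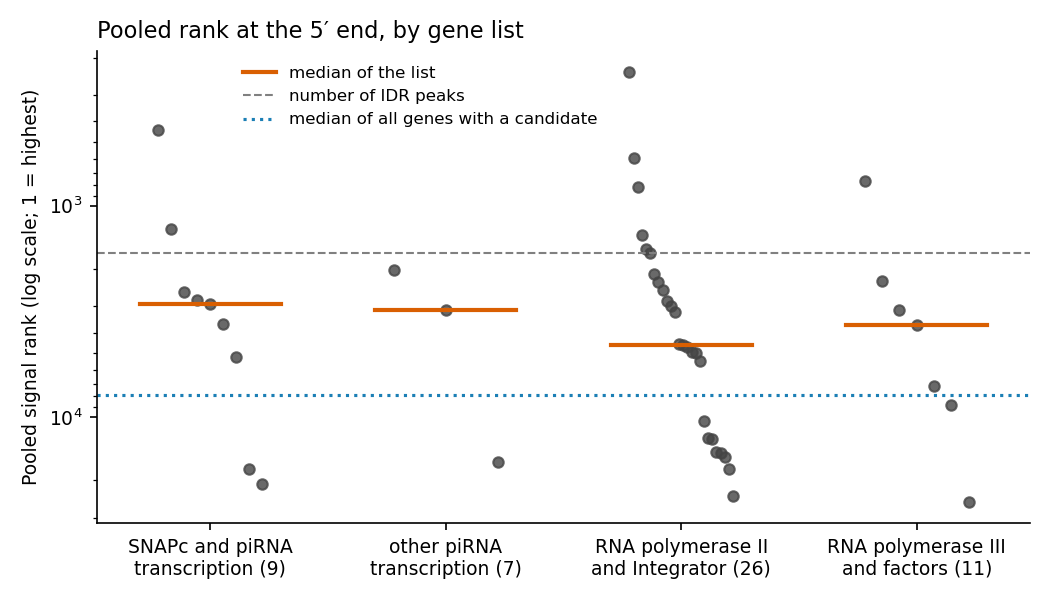
Pooled signal rank (log scale, 1 is the highest, at the top) of the best region within 500 bp of the 5′ end for the 9 untagged genes and 3 lists of other transcription genes, 1 point per gene with a candidate, in rank order from left to right; numbers in brackets are genes matched, orange bars are medians of the points shown, the dashed line is the number of IDR peaks and the dotted line the median of all 7011 genes with a candidate (7896). Points above the dashed line are 2 of 9, 0 of 7, 5 of 26 and 1 of 11 genes.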

How the data were processed

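Regions enriched with tagged SNPC-1.3 were listed for 2 biological replicates. Per the deposited text notes, the authors made each replicate's list and the pooled list with the same 1 control and derived the IDR list from those 3 lists. For the caller, the aligner, the IDR threshold and the depth, nothing is stated. The deposited signal per region and the deposited −log10 q-value were taken as they stand, signal being used only to rank or describe regions within a list. The 4 ce10 lists were not used.

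Starts were converted to 1-based positions and joined to Ensembl release 115 (WBcel235, the assembly of ce11) and its RefSeq sequence. A gene was called when a summit lay within 500 bp (also 250 and 1000 bp) of its 5′ end or inside it, and all 19973 nuclear protein-coding genes gave the background. Unique 31-mers were counted on either strand over the nuclear chromosomes; 31 bp stands in for the read length. Tiles of equal length gave the background of the 50 kb windows. No test was made. Named genes were the 10 members, unc-119, up to 4 genes with the highest IDR peaks per list, 3 genes like the leading member, and neighbours within 1000 bp of a member's region; other genes of the lists were named after their values were seen. The members and lists were chosen with earlier results of these data known. Neighbours of regions were sought among annotated genes other than piRNA genes. Assignment was tested on simulated regions. Python 3.11.15, pandas 2.3.3 and numpy 2.4.6 were used.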

Additional observations from a re-analysis of the deposited data

How the results depend on the processing

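Of the 9 untagged genes, snpc-1.2 and snpc-3.4 were called at the 5′ end with windows of 250 or 1000 bp, any overlap, any transcript start and the top 1676 regions of replicate 2 alone. The top 1676 of replicate 1 alone also gave 2 genes, but prde-1 in place of snpc-1.2. The count was 1 (snpc-3.4) with the 838 peaks of highest signal, since snpc-1.2 ranks below them. The share of all protein-coding genes was 3.68% with 250 bp, 7.78% with 1000 bp, 6.52% with any overlap, 6.31% with any transcript start and 2.96% with those 838 peaks, and without 1 replicate it ran from 5.10% to 5.79%. In the gene body the count was 0, and 1 with any overlap (4.69% of all genes), where the region at the start of snpc-3.4 reaches into the gene. The median rank of the 9 genes was 2926 in the pooled list, 11662 in replicate 1 alone and 3296 in replicate 2 alone. Genes with no region, 3 in replicate 1 and 2 in replicate 2, were counted as ranked last. The cause of the difference was not tested. Within 25 kb and 100 kb of snpc-1.3 there were 15 and 49 pooled candidates, as the window's length sets. The count for RNA polymerase II and Integrator was 3 with 250 bp and 3 with the stricter list. No paired analysis was possible because the series has 1 group. Depth is unknown, so a gene without a region cannot be called unbound.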

Other observations

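Beyond the 3′ end of prde-1 an IDR peak was listed that the rule for the gene leaves out. Its summit was 878 bp past the gene's end and 8 bp outside the tRNA gene WBGene00014353 (V 15547875 to 15547956, minus strand), at rank 1395 with a signal of 43.9. It was at rank 2199 in replicate 1 and rank 1061 in replicate 2, so that the region of highest pooled rank near prde-1 was at a tRNA gene and not at its 5′ end.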
